A study of Mus musculus with 28 samples.

Results

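The proteasome is the protease that degrades most ubiquitin-tagged proteins in the cytosol and nucleus. Its core particle is a barrel of alpha and beta subunit rings, and the catalytic sites face the inside of the beta rings. The regulatory particle caps the barrel: its ATPases unfold substrates and open the gate, and its non-ATPase subunits receive ubiquitin chains and remove them. The Psme proteins are activators that can bind the barrel in place of that cap. In dendritic cells, the cells that present antigen to T cells, proteasomes also cut the peptides that are loaded onto MHC class I.

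The genes described here carry names of the form Psma, Psmb, Psmc, Psmd or Psme with a number, other than the interferon-inducible catalytic genes Psmb8 and Psmb9. Each had to reach 1 CPM, the gene's reads scaled to the library total, in at least 3 of the 28 libraries. Of 41 such names among the 24995 genes of the files, 40 passed. They are 8 core alpha, 8 core beta, 6 ATPase, 14 non-ATPase and 4 activator genes. The one left out, Psmb11, the thymus-specific beta subunit, held 3 reads over all libraries. A constitutive set is not quite what the names select: Psmb10 is the remaining inducible catalytic subunit, Psma8 is a testis form of the alpha ring, and Psme1 and Psme2 encode the interferon-inducible PA28 activator. They are therefore called proteasome subunits and activators below.

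RNA-seq was carried out on dendritic cells grown from C57BL/6 mouse femur marrow with the cytokines GM-CSF (20 ng/ml) and IL-4, the latter at 10 ng/ml. The 4 genotypes were wild type (WT), a knockout of the NF-kB subunit RelB (RelBko), a knockout of the type I interferon receptor (IFNARko) and the double knockout of both. Each genotype gave 1 control library, labelled 1 h, plus 1 for every stimulus at 1, 3 and 8 h. The stimuli were CpG ODN 1668 at 0.1 µM, an oligonucleotide that engages TLR9, and Poly(I:C) HMW, which mimics viral double-stranded RNA. For Poly(I:C), the labels give 10 ng/mL in titles and 10 µg/mL in the protocol. No group had a replicate, and the labels do not say which libraries came from separate cultures or mice, or which cells carried the deletions.

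The libraries held 3269933 to 42227938 reads. Relb transcripts were present in RelBko, at 69.2 to 156 CPM against 93.9 to 187 CPM in WT, so they do not by themselves separate the genotypes. Ifnar1 ranged from 109 to 148 CPM in WT and from 52.0 to 92.9 CPM in IFNARko. Of 9 dendritic cell markers, 8 reached 1 CPM in at least 1 library of every genotype, and Cd209a stayed under 1 CPM in all. Other cells' markers differed by genotype. The 3 T cell genes together reached 80.8 to 94.5 CPM in IFNARko, while all other libraries lay between 8.597 and 21.4 CPM. The 3 collagen genes summed to 18.8 to 35.8 CPM in the double knockout and to at most 2.04 CPM elsewhere. In bulk RNA, more cells of a type and more RNA per cell cannot be told apart.

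The 40 genes together ranged from 4578 CPM in the double knockout 8 h after Poly(I:C) to 5556 CPM in IFNARko 3 h after CpG, a 1.21-fold range over all 28 libraries. The sum of the core alpha genes varied 1.36-fold, that of the core beta and that of the non-ATPase genes 1.26-fold each, and that of the ATPases 1.31-fold. The activators varied most, 1.47-fold, from 760.7 CPM in WT controls to 1119 CPM in RelBko 8 h after CpG. Without Psme1, Psme2 and Psmb10 the total still varied 1.21-fold. These ranges depend on the scale. With median-ratio scaling the total varied 1.54-fold, from 3593 in the double knockout 8 h after Poly(I:C) to 5533 in WT 8 h after CpG, and with TMM scaling 1.63-fold. The activators varied most on those scales too, 1.81-fold and 1.77-fold.

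On the library total, Psmd2, a scaffold subunit of the cap base, had the smallest spread, 246 to 297 CPM. Its coefficient of variation over the 28 libraries was 5.06%. Psmc6, an ATPase, followed at 6.21%. The order of spreads was not computed with the other scalings, whose median-ratio factors ran from 0.913 to 1.302 between libraries. Among members above a few CPM, the spread was widest for Psma6 (24%), Psme2 (21.1%), Psmd9 (20.8%) and Psmd10 (20.1%). Psma8 varied by 47.5%, but it lay between 0.686 and 2.96 CPM, where counting error is large.

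Levels can be compared between genes only per exon length. On that scale, CPM per kb of annotated exon sequence, the highest medians were those of Psme2 (156), Psme1 (154), Psma6 (120) and Psmd8 (113). Psmb10, at 97.4 CPM per kb, stood above its housekeeping partner Psmb7, at 25.5. The order of Psme2 and Psme1 is not resolved, since their ranges of 113 to 246 and 131 to 209 CPM per kb overlap almost wholly. At the other end were Psmd9, an assembly chaperone of the ATPase ring, at 3.50 and Psma8 at 0.453 CPM per kb. The role medians ran from 26.9 for the non-ATPase genes to 101 for the activators. Exon lengths count every annotated isoform, so genes with many isoforms are placed too low on this scale.

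**Figure D1:**
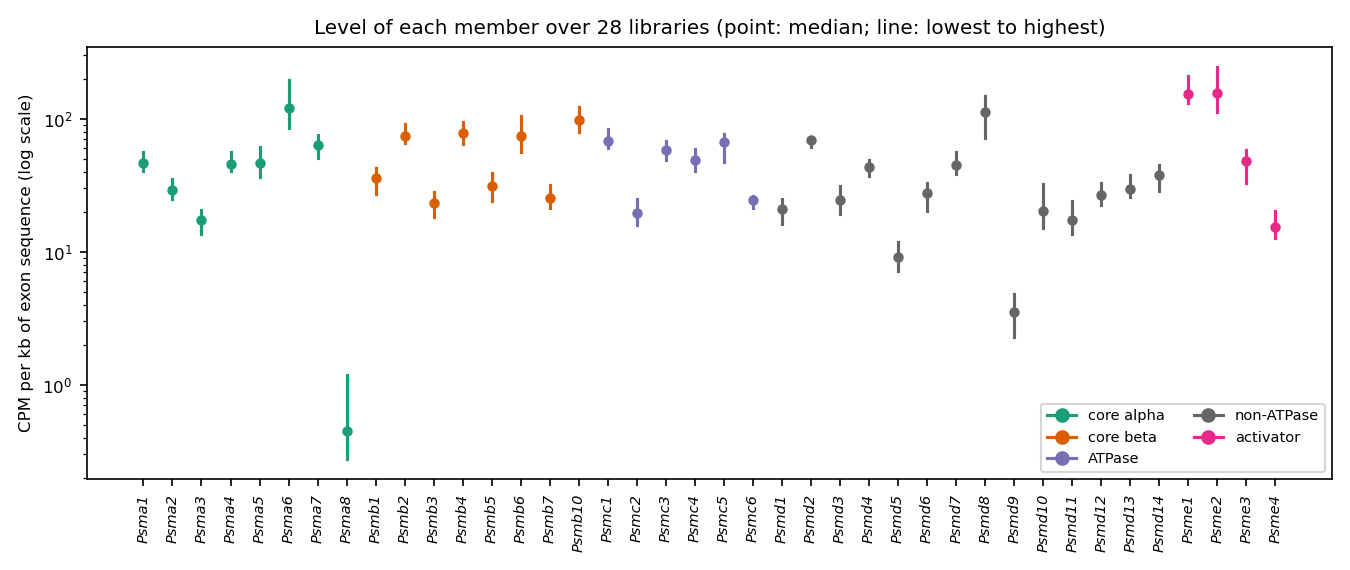
Median level of each of the 40 genes over 28 libraries in CPM per kb of exon sequence (log scale), coloured by role, with lines from the lowest to the highest library. Psme1, Psme2, Psma6 and Psmd8 lie above 100 CPM per kb, and Psma8 lies below 1.

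Start-site windows are printed below for Psma6, Psme1, Psme2 and Psmb6, a choice among the members called after CpG. Those of Psmd8, Psmd9 and Psmd10, which changed more than Psmb6 at 8 h, are not printed. Psma6, an alpha-ring subunit, had the strongest response to CpG at 3 h, and RefSeq lists 2 start sites for it. Psme1 and Psme2, the alpha and beta chains of the PA28 ring, lie on opposite strands of chromosome 14 with 5911 bases between them, and both rose 8 h after CpG. Psmb6 encodes the caspase-like catalytic subunit, which Psmb9 replaces in the immunoproteasome. Each window runs 5′ to 3′ on the gene's strand from 250 bases before to 50 bases after a RefSeq start on GRCm38.p6. They are Psma6 chr12:55383972-55384271 (+) and chr12:55398575-55398874 (+), Psme1 chr14:55578244-55578543 (+), Psme2 chr14:55590972-55591271 (-) and Psmb6 chr11:70525107-70525406 (+). RefSeq lists a further, upstream start for Psme2, with the window chr14:55591052-55591351 (-). That window is not printed and held no motif match. Capitals mark a match to 1 of the 3 motifs described next.
Psma6, upstream start: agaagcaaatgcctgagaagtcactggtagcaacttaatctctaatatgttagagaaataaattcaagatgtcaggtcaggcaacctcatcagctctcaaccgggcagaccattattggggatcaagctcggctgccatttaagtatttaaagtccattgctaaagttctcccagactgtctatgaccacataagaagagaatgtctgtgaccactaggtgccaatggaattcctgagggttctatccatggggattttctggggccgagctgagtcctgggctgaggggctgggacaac
Psma6, downstream start: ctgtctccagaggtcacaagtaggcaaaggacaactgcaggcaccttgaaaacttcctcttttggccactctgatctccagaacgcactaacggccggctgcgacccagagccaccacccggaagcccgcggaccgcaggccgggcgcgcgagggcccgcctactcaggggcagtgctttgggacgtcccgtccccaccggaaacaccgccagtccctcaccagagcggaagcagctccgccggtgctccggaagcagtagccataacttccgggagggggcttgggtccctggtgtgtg
Psme1: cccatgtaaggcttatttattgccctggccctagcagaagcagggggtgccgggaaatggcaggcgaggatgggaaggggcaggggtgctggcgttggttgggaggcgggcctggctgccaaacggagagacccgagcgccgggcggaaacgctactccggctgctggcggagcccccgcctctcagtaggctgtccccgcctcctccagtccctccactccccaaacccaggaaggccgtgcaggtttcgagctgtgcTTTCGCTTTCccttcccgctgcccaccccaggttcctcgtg
Psme2: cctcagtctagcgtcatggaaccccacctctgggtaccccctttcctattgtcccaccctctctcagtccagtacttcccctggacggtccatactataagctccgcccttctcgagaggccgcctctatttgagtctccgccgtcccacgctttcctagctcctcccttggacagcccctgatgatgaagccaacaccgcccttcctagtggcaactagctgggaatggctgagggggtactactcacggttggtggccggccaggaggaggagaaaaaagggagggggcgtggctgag
Psmb6: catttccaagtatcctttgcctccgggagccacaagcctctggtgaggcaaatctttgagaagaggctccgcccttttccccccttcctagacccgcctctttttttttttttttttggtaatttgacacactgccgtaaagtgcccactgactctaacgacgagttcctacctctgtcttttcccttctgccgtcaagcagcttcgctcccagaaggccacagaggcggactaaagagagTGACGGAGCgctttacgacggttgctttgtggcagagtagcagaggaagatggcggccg

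The motifs were searched on both strands and did not overlap each other in these windows. They were the core of the interferon-stimulated response element, written as GAAA, any 2 bases and GAAA, the core of the antioxidant response element, TGACNNNGC, and an NF-kB core, written as GGGA, any 2 bases and TTCC. The interferon core occurred in 3.44% of 32851 promoter windows of all genes and in windows of 4 of the 33 members with a RefSeq window, namely Psmb3, Psmd4, Psmd9 and Psme1. In Psme1 it starts at position 10 after the start site. The antioxidant core occurred in 12.4% of all windows and for 6 members: Psmb5, Psmb6, Psmc6, Psmd9, Psmd12 and Psme4. In Psmb6 it begins 9 bases before the start site. The NF-kB core occurred in 1.47% of all windows and for Psme4 alone, so Psma6 and Psme2 show no capitals. The member counts are per gene and the shares per window. The motif set was settled after a first search had been seen: a pair of exact NF-kB strings matched 0 members (0.155% and 0.0883% of all windows) and were widened, and CCAAT, matched in 12 members and 37.4% of all windows, was dropped. A match is a run of letters, not a shown binding site.

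To find which subunits change after CpG, each time was set against the control libraries, with the 4 genotypes as repeats. The controls are labelled 1 h, so the stimulus and further time in culture cannot be told apart at 3 and 8 h. At 3 h of CpG, Psma6, Psmd10, Psmd1, Psmd11 and Psmc5 were called higher and Psmd9, Psmd8, Psmb4 and Psmd3 lower. At 8 h Psmd10, Psme2, Psma6, Psma5, Psme1 and Psmb6 were higher and 9 members lower, with Psmd9 and Psmd8 lowest. At 1 h none passed the test. Changes are log2 differences of CPM + 1 with the standard error (SE) from limma, and adjustment of p-values covers every gene tested.

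The counts were 5 higher and 4 lower of 40 at 3 h, where 12.4% of all genes tested were called higher and 31.9% lower. At 8 h they were 6 higher and 9 lower, beside 15.3% and 38.8% of all genes. At 1 h they were 0, beside 0.508% of all genes called in either direction. An unadjusted p under 0.05 was found for 1 member, beside 781 of 12608 genes. With limma voom, a test on the recovered reads, the 1 h count was also 0, beside 0.666%. CPM is relative to the library total, and on it the median of all genes moved by -0.15 at 3 h and -0.17 at 8 h, while the members' median was 0.02 and -0.06. With libraries scaled by median ratios, which returns the median of all genes to -0.02 and -0.01, the counts became 16 higher and 0 lower at 3 h, beside 18.1% and 18.3% of all genes. At 8 h they became 8 higher and 2 lower, beside 23.6% and 24.7%. The fall of Psmd8 and Psmd9 at 8 h and the rise of Psma6, Psmd10, Psme1 and Psme2 passed the test on either scale. Without the RelBko libraries the number called was 2 at 3 h and 8 at 8 h, and without WT it was 4 and 15. Of all 12481 genes tested without RelBko, 1141 were higher and 2680 lower at 3 h, and 1517 and 3646 at 8 h. Of 12452 tested without WT, 1352 were higher and 3194 lower at 3 h, and 1619 and 3986 at 8 h.

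Among the core alpha genes, Psma6 stood apart. In the order WT, RelBko, IFNARko, double knockout, used for every run of 4 values below, the controls held 132, 114, 154 and 131 CPM of Psma6. At 3 h after CpG it was at 197, 175, 241 and 197 CPM and at 8 h at 224, 166, 229 and 158 CPM. Every CpG library of 3 or 8 h lay above every control. The log2 change was 0.60 ± 0.07 at 3 h (adjusted p = 6.3e-06) and 0.53 ± 0.07 at 8 h (adjusted p = 1.5e-05). At 1 h the levels were 147, 121, 158 and 138 CPM, close to the controls.

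Among the other alpha genes Psma5 alone was called. Psma5 was at 48.3, 56.8, 63.1 and 57.3 CPM in the controls and at 80.7, 70.3, 66.7 and 58.7 CPM 8 h after CpG, a change of 0.29 ± 0.09 (adjusted p = 0.016). The difference was largest in WT, and the call was lost without WT or without RelBko. Changes of the other 6 alpha genes, the scarce Psma8 included, did not pass the test at any time after CpG. A share within the alpha ring is free of library scaling. Psma6 made up 18, 14.6, 16.9 and 15.7% of the summed CPM of Psma1 to Psma7 in the controls. The share was 23.2, 20, 24 and 22.7% at 3 h and 24.9, 20, 24.5 and 19.9% at 8 h of CpG. It is given without a test, as it was chosen after the Psma6 values had been seen.

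On GRCm38 the Psma6 gene spans chr12:55384222-55418454. Nfkbia, which encodes the NF-kB inhibitor IkB-alpha, lies 70955 bases away on the same chromosome.

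**Figure D2:**
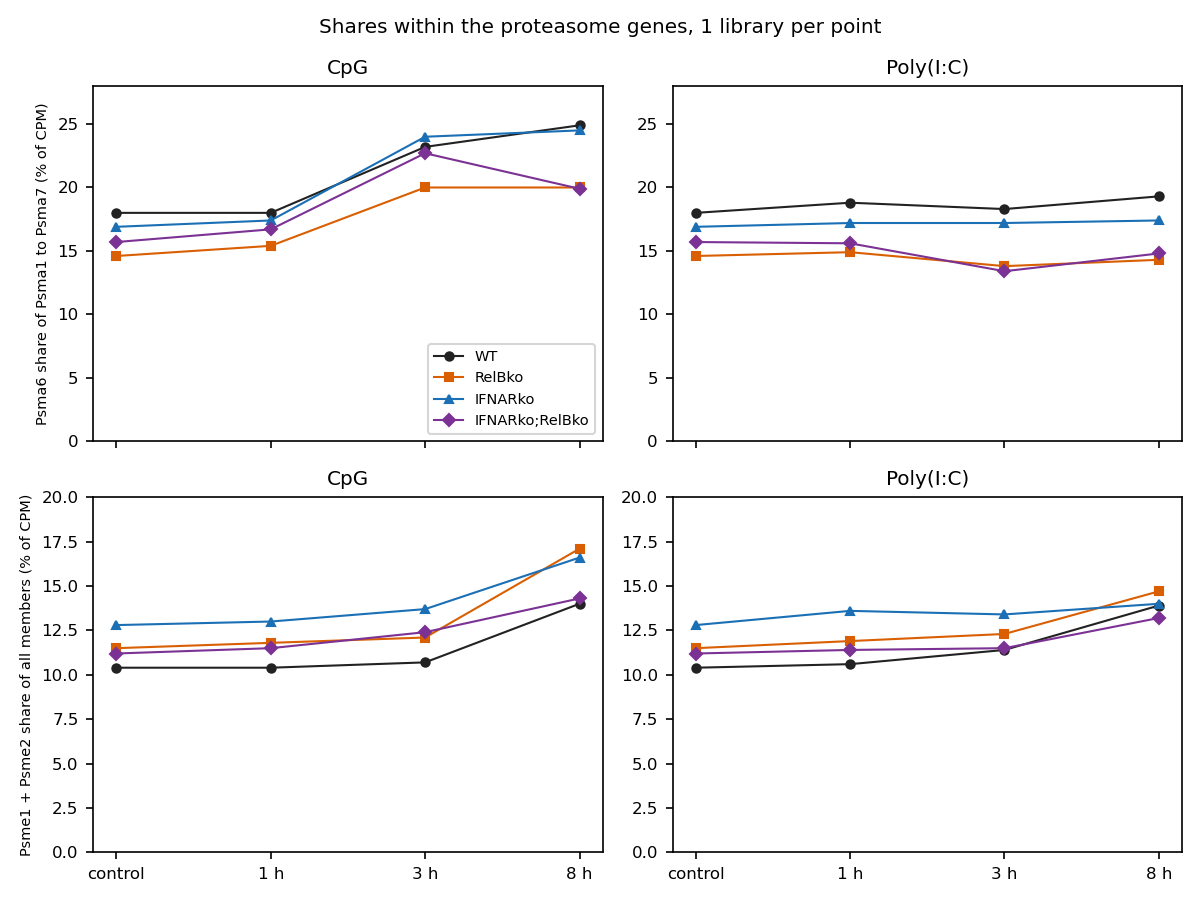
Share of Psma6 in the summed CPM of Psma1 to Psma7 (top) and of Psme1 plus Psme2 in that of all 40 genes (bottom), in percent, per library, by time after CpG (left) and Poly(I:C) (right). The Psma6 share rose in every genotype 3 h after CpG, to 20% or more, and stayed at 13.4 to 19.3% after Poly(I:C).

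In the beta ring, Psmb6 was the only member called higher after CpG. It held 143, 135, 137 and 123 CPM in controls and 194, 181, 154 and 120.3 CPM at 8 h, a change of 0.25 ± 0.08 (adjusted p = 0.015). It was higher in 3 of 4 genotypes, and the double knockout was the exception. The call was lost without WT or without RelBko. Psmb4, a non-catalytic subunit, went from 147, 154, 184 and 175 to 139, 126, 159.7 and 137 CPM at 3 h (adjusted p = 0.0095), a fall not called with median-ratio scaling. Psmb1 and Psmb2 were called lower at 8 h, with changes of -0.20 and -0.17, and neither call held with that scaling, where Psmb2 lay at 0.0034. Psmb10, the inducible member, was not called at any time: it was at 169.6, 164, 209 and 149 CPM in controls and 146, 189, 166 and 135 CPM 8 h after CpG. Psmb5, which carries the chymotrypsin-like site, ranged from 21.57 to 34.95 CPM over all libraries and was not called after CpG.

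Of the 6 ATPases, Psmc5 was called higher at 3 h, from 74.5, 84.1, 96.3 and 100.2 to 96.7, 103, 108 and 106 CPM (log2 change 0.22 ± 0.08, adjusted p = 0.026), and Psmc3 lower at 8 h with a change of -0.17 (adjusted p = 0.02). The Psmc3 call was lost with median-ratio scaling.

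The 14 non-ATPase genes went both ways. Psmd10, known as gankyrin, is an ankyrin-repeat chaperone that helps build the base of the cap. Its CPM was 22.2, 28.1, 23.6 and 28.3 in controls, 36.8, 39.3, 30.3 and 31.2 at 3 h and 47.5, 41.9, 42.2 and 31.5 at 8 h. The control and CpG libraries did not overlap at 3 or 8 h, and the changes were 0.41 ± 0.12 (adjusted p = 0.012) and 0.64 ± 0.12 (adjusted p = 0.00033). The double knockout had the smallest rise. Psmd1, the large base scaffold, went from 118, 144, 156 and 155 to 177, 166, 179 and 166 CPM at 3 h (adjusted p = 0.024). Psmd11, a lid subunit, went from 109.7, 114, 101 and 112 to 154, 152, 116 and 110.5 CPM (adjusted p = 0.031). It was higher in 3 of 4 genotypes, and its larger changes were in WT and RelBko. The 3 h calls of Psmd10, Psmd1, Psmd11 and Psmc5 were each lost without RelBko and without WT, those of Psmd1, Psmd11 and Psmc5 also without IFNARko, and that of Psmd11 also with no filter.

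Psmd8 and Psmd9 fell. Psmd8, a lid subunit, was at 448, 438, 408 and 324 CPM in controls. It was at 379, 350.2, 351 and 269 CPM 3 h and 316, 292, 299 and 228 CPM 8 h after CpG, with changes of -0.26 ± 0.06 and -0.51 ± 0.06 (adjusted p = 0.0012 and 1.3e-06). All 8 h libraries lay below all controls, and within each genotype the level was lower at 8 h than at 3 h. Psmd9 was at 31.4, 32.6, 24.4 and 32.3 CPM in controls and 17.4, 20.4, 18.6 and 16.5 CPM at 8 h, a change of -0.69 ± 0.11 (adjusted p = 7.8e-05). Psmd9 and the gankyrin gene Psmd10, both chaperones of base assembly, thus changed in opposite directions. Psmd3, Psmd6 and Psmd12 were called lower at 8 h with changes of -0.19, -0.27 and -0.21. None of these 3 calls held with median-ratio scaling. An annotated RNA overlaps Psmd9 exons on the opposite strand, and the strand setting of the counting was not given. Exons of Psma4, Psma5, Psmb7 and Psmc3 are also overlapped on the opposite strand. Those of Psmd1 overlap Htr2b on the opposite strand and the coding gene Gm21972 on the same strand.

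The activators split by complex. Psme2 was at 199.7, 249, 317 and 247 CPM in controls, 239.7, 285, 358 and 274 CPM at 3 h and 362, 433, 407 and 322 CPM at 8 h of CpG, a change of 0.60 ± 0.08 at 8 h (adjusted p = 1.8e-05). Psme1 was at 289, 317, 382 and 324 CPM in controls and 345, 433, 462 and 359 CPM at 8 h, a change of 0.28 ± 0.06 (adjusted p = 0.00087). Both were higher in 4 of 4 genotypes, and for Psme2 the 8 h libraries all lay above the controls. Psme3, the nuclear activator PA28-gamma, moved from 137, 151, 146 and 164 to 108, 112, 131 and 155 CPM, a change of -0.25 ± 0.07 (adjusted p = 0.0049) that was not called with median-ratio scaling. Psme4, the activator PA200, was not called. Together Psme1 and Psme2 took 10.4, 11.5, 12.8 and 11.2% of the members' summed CPM in controls and 14, 17.1, 16.6 and 14.3% at 8 h.

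**Figure D3:**
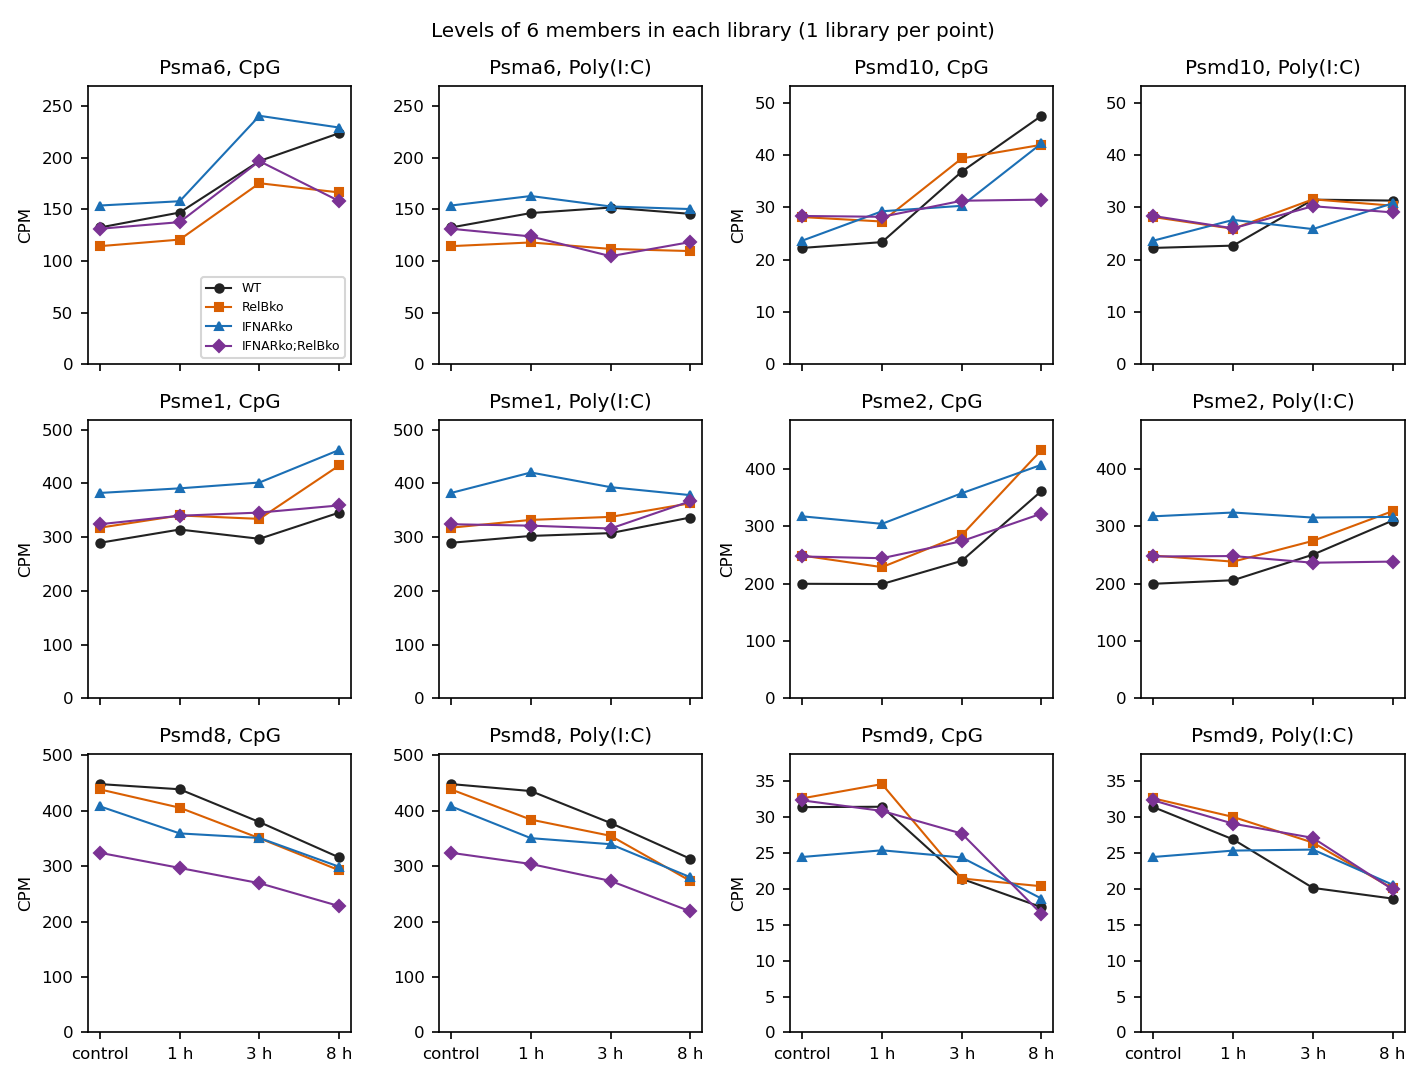
CPM of 6 genes in each library by time after CpG or Poly(I:C), with 1 line per genotype and each axis starting at 0. Psma6 climbed after CpG in every genotype, after Poly(I:C) it was higher in WT and lower in the double knockout at 3 h, and Psmd8 and Psmd9 declined after both by 8 h. The 6 genes were picked after their values were seen.

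The falls were seen after Poly(I:C) too, but the Psma6 rise was not. At 8 h of Poly(I:C) 13 members were called lower than control and 2, Psmd10 and Psme1, higher. Of all genes tested, 24.1% were called lower and 18.9% higher. At 3 h 3 members were lower and 1 higher, beside 9.71% and 13.9%. At 1 h none was called, beside 0.331% of genes in either direction, and voom called 0, beside 0.268%. An unadjusted p under 0.05 was found for 3 members, beside 1286 of 12692 genes. The median of all genes lay at -0.03 at 8 h and that of the members at -0.09. With median-ratio scaling the 8 h counts were 10 lower and 2 higher, beside 21.4% and 21.6% of all genes, and the 3 h counts 3 lower and 0 higher, beside 12.9% and 12.3%. Without the RelBko libraries 7 members were called at 8 h and 1 at 3 h. Of all 12586 genes then tested, 1576 were higher and 1866 lower at 8 h, and 798 and 386 at 3 h. CpG and Poly(I:C) responses share the control libraries, so their likeness is not independent. Time in culture beyond the 1 h controls enters both as well, and its part was not tested.

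Psmd8 and Psmd9 again led the falls. Psmd8 was at 378, 355, 339 and 273 CPM 3 h and 313, 273, 279.9 and 218 CPM 8 h after Poly(I:C), a change of -0.58 ± 0.05 at 8 h (adjusted p = 1.5e-07). Psmd9 was at 18.6, 20.1, 20.6 and 19.9 CPM at 8 h, a change of -0.58 ± 0.09 (adjusted p = 0.00012). For both genes all 8 h libraries lay below all controls. Psmd3, a lid subunit, was at 120.2, 132, 155 and 152 CPM in controls and 95.3, 103, 119.8 and 113 CPM at 8 h, a change of -0.37 ± 0.05 (adjusted p = 2.2e-05), and the groups did not overlap. Psme3 fell by 0.30 on the log2 scale (adjusted p = 0.00086). Smaller falls of 0.14 to 0.22 were called for the ATPases Psmc1 to Psmc4, the core subunits Psmb1 and Psmb4, and Psmd7, Psmd11 and Psmd12.

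Few members rose after Poly(I:C). Psma5 was called at 3 h, at 67.4, 71.7, 65.8 and 59.4 CPM (log2 change 0.23 ± 0.08, adjusted p = 0.039). That call was lost in 5 of 9 alternatives: both other scalings, no filter, and leaving out WT or RelBko. Psmd10 was at 31.3, 30.3, 30.8 and 29.0 CPM at 8 h, a change of 0.24 ± 0.09 (adjusted p = 0.036), above every control. Psme1 was called at 8 h with 0.14 ± 0.05 (adjusted p = 0.042) in 3 of 4 genotypes. Both calls were lost when WT or RelBko was left out, and with no filter. That of Psmd10 was also lost without IFNARko, and that of Psme1 without the double knockout. Psme2 was at 310.0, 326, 316 and 238 CPM, high in WT and RelBko and close to the controls without IFNAR, and its mean change of 0.24 ± 0.10 gave an adjusted p of 0.058. Psma6 was at 152, 112, 153 and 105 CPM at 3 h and 146, 109.6, 150.3 and 118 CPM at 8 h. The mean changes, -0.04 ± 0.06 and -0.03 ± 0.06, did not pass the test, and the genotypes differed in sign: at 3 h the change was 0.20 in WT and -0.32 in the double knockout.

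**Figure D4:**
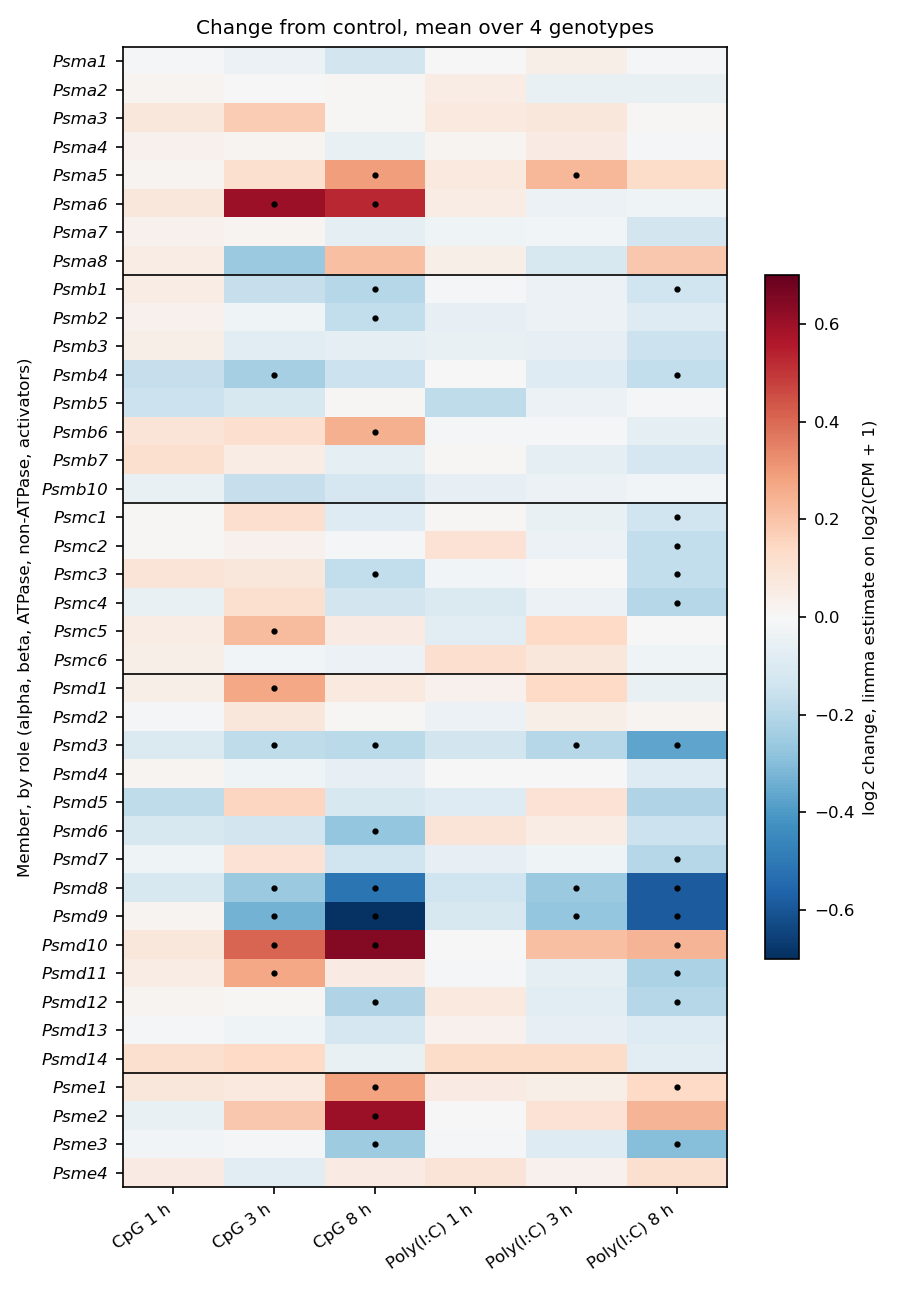
Log2 change of each gene against control, averaged over 4 genotypes, at 1, 3 and 8 h of CpG and Poly(I:C). Dots mark calls at an adjusted p under 0.05, and Psma6 is red after CpG only, at 0.60 and 0.53, while Psmd8 and Psmd9 are blue at 8 h of both.

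A direct test set CpG against Poly(I:C) at 3 and 8 h, which uses no control library. Psma6 was higher with CpG in 8 of 8 matched pairs, by 0.60 ± 0.05 on the log2 scale (adjusted p = 9.3e-10), and its CpG and Poly(I:C) libraries did not overlap. Psmd11 (0.31 ± 0.06), Psmd10 (0.30 ± 0.08) and Psmb6 (0.23 ± 0.05) were also higher in 8 of 8 pairs, and Psme2 (0.23 ± 0.07) in 7 of 8. Their adjusted p-values were 0.00021, 0.002, 0.00064 and 0.0061. In all, 10 members were called higher and 2 lower with CpG, where 10.4% and 41.9% of all genes were called. The others higher, by 0.10 to 0.13, were Psmc1, Psmc2, Psmc4, Psmd1 and Psmd3, and the lower ones were Psma1 and Psmd6.

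That split depends on the scale. The median of all genes lay at -0.15 and the members' median at 0.04, and all 40 members were above the median of all genes. With median-ratio scaling 29 members were called higher and 0 lower, beside 20.5% and 20.2% of all genes, with Psma1 and Psmd6 at 0.05 and 0.0047. Psma6, Psmd10, Psmd11, Psmb6 and Psme2 were called higher under each of the 10 alternatives tried for this comparison. The differences for Psmd8 and Psmd9 did not pass the test.

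Genotype differences were tested over the 6 stimulated conditions. The question the study poses here is what RelB contributes with and without the interferon receptor. In IFNAR-intact cells, loss of RelB went with lower Psma6 and Psmd8 and higher Psme1. In IFNAR-null cells it went with lower levels of 16 members, led by Psmb10, Psma6, Psme2 and Psmd8, and higher levels of Psma8, Psmc1 and Psme3. The counts were 1 higher and 2 lower for RelBko against WT, beside 19.5% and 8.97% of all genes. They were 3 higher and 16 lower for the double knockout against IFNARko, beside 33.3% and 16.5%. The medians of all genes were 0.08 and 0.11, those of the members 0.03 and -0.10. With median-ratio scaling the counts were 0 higher and 5 lower for RelBko, beside 11% and 13.4%. For the double knockout they were 0 higher and 23 lower, beside 20% and 22.4%.

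Psma6 was lower without RelB in 6 of 6 conditions in either background. The difference was -0.34 ± 0.05 for RelBko against WT (adjusted p = 5.4e-05) and -0.38 ± 0.05 for the double knockout against IFNARko (adjusted p = 3.9e-06). The controls, which did not enter this test, held 132, 114, 154 and 131 CPM, lower without RelB in both pairs. Psmd8 differed by -0.13 ± 0.04 (adjusted p = 0.014) and -0.32 ± 0.04 (adjusted p = 6.2e-07). The first of these calls was lost without the Poly(I:C) 1 h or 8 h libraries, at adjusted p-values up to 0.059. Psmd8 lies on chromosome 7, 9.54 Mb from Relb, and Psmc4 lies 8.41 Mb from it. Psmc4 did not pass the test in either pair. Sequence carried along with the targeted Relb allele and the loss of RelB itself cannot be told apart in this design.

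Psme1, whose exons overlap Emc9 on the opposite strand, was called in opposite directions for RelB in the 2 backgrounds. Over the stimulated libraries, Psme1 ran from 296.7 to 345.5 CPM in WT. In RelBko it ran from 331.9 to 433.2 CPM, a difference of 0.16 ± 0.05 (adjusted p = 0.011). That call was lost with median-ratio scaling. In IFNARko it ran from 378 to 462.1 CPM and in the double knockout from 315.9 to 366.7 CPM. The last 2 groups did not overlap, and the difference was -0.25 ± 0.05 (adjusted p = 0.00012). Psme2 differed by 0.19 ± 0.08 in the first pair (adjusted p = 0.067) and by -0.37 ± 0.08 in the second (adjusted p = 0.00029). Whether these genotype differences differ between the backgrounds was not tested.

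Of the 16 members lower in the double knockout than in IFNARko, Psmb10 differed most. It was at 135 to 149.5 CPM there and 165.8 to 198.1 CPM in IFNARko, without overlap. The difference was -0.41 ± 0.07 (adjusted p = 1.5e-05). For RelBko against WT it was -0.00 ± 0.07. Psmb6 (-0.25 ± 0.06), Psma4 (-0.24 ± 0.05), Psma7 (-0.23 ± 0.05), Psma5 (-0.21 ± 0.06) and Psmc2 (-0.19 ± 0.05) were lower in 6 of 6 conditions, and each was called with every alternative except Psma5 with 1 of 12. Psmc1 and Psme3 were higher by 0.21 and 0.19, calls lost with both other scalings. Psma8 was higher by 0.41 ± 0.16, at no more than 2.96 CPM, and its call was lost in 7 of 12 alternatives, at adjusted p-values up to 0.13.

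Loss of IFNAR was set against the same RelB state. In RelB-intact cells 23 members were called higher and 3 lower in IFNARko, beside 40% and 13% of all genes. In RelB-null cells 12 were higher and 6 lower in the double knockout, beside 42.6% and 13.8%. The medians of all genes were 0.14 and 0.16, and those of the members 0.13 and 0.03. Median-ratio scaling turned the first counts to 4 higher and 8 lower, beside 22.8% and 23.1%. It turned the second to 1 higher and 19 lower, beside 22.8% and 24.5%. On that scale the median of all genes lay at -0.00 and -0.01.

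The PA28 genes Psme1 and Psme2 were higher in IFNARko than in WT by 0.36 ± 0.05 and 0.39 ± 0.08 (adjusted p = 9.4e-07 and 0.00013). Psmd3 and Psmd13, both lid subunits, were higher by 0.37 ± 0.04 and 0.33 ± 0.05 (adjusted p = 1.1e-07 and 8.1e-06). With median-ratio scaling these 4 were the only members called higher, and with TMM scaling Psme2 was not called. Lower in IFNARko were Psmd11 (-0.25 ± 0.07), Psmd8 (-0.18 ± 0.04) and Psmb6 (-0.17 ± 0.06), with adjusted p-values of 0.0055, 0.00049 and 0.017. Exons of Psmd13 and Psmd3 overlap genes on the opposite strand.

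In RelB-null cells, Psmd8, Psmb6 and Psmb10 were lower without IFNAR. The differences were -0.37 ± 0.04 (adjusted p = 6e-08), -0.29 ± 0.06 (adjusted p = 0.00021) and -0.24 ± 0.07 (adjusted p = 0.0039). With either other scaling Psma8 was the only member called higher. The calls for Psmc1, Psmc3, Psmc4, Psmd3, Psmd4 and Psmd13, between 0.14 and 0.16, fell to between -0.05 and -0.02 with the other scalings.

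**Figure D5:**
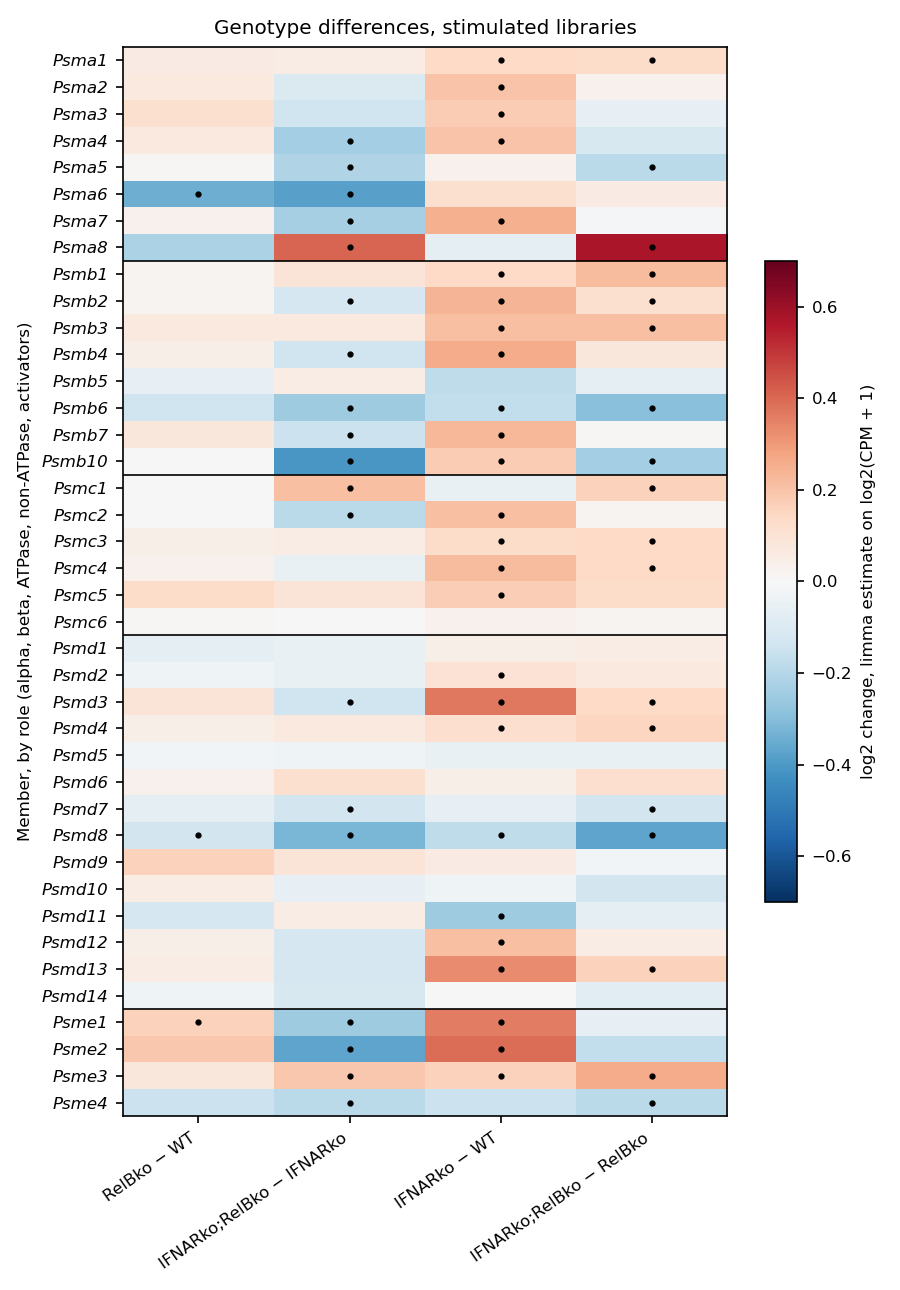
Log2 difference of each gene between genotypes over the 6 stimulated conditions, with dots at an adjusted p under 0.05. Psma6 and Psmd8 are blue in both comparisons for RelB, and Psme1 and Psme2 are red in IFNARko against WT, on the library-total scale, where most genes lie above 0.

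Markers of other cells moved with these genotype differences. Besides the T cell and collagen genes above, the 5 neutrophil genes summed to 56.65 to 96.48 CPM in WT. In RelBko that sum was 154.5 to 238 CPM, in IFNARko 59.0 to 159 CPM and in the double knockout 21.9 to 34.5 CPM. Its genes did not move together. S100a8 and S100a9 were lowest in the double knockout, at 3.63 to 6.29 and 2.74 to 3.89 CPM. Mpo was highest there, at 11.5 to 23.9 CPM against at most 5.54 CPM in the other genotypes. Ly6g and Elane reached at most 2.59 and 1.97 CPM in any library. The 3 mast cell or basophil genes, Cpa3, Mcpt8 and Ms4a2, summed to 1.26 to 4.88 CPM in WT and RelBko. Their sum was 19.2 to 34.7 CPM in both IFNAR-null genotypes. The 6 macrophage genes found summed to 864 to 1335 CPM in WT. In RelBko that sum was 644.5 to 1162 CPM, and without IFNAR 427 to 727 CPM. Their part in the genotype differences of Psme1, Psme2, Psmb10 and the other members was not tested.

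Differences between genotypes in the response itself were tested next. For CpG, the response, taken as the mean of the 3 and 8 h changes, was smaller without IFNAR for Psma5 and Psmd14, 2 of 40 members, beside 2.99% of all genes called lower and 3.27% higher. With median-ratio scaling 6 members were called lower and 0 higher, beside 4.28% and 2.1%. On the library total 11 members had an unadjusted p under 0.05, beside 2548 of all 12972 genes. For Poly(I:C) the response was smaller for Psme2, 1 of 40, beside 2.54% and 1.8%. At an unadjusted p under 0.05 there were 7 members, beside 2027 of 12972 genes. By RelB state no response of a member was called, 0 after CpG beside 0.547% of all genes in either direction, and 0 after Poly(I:C) beside 0.123%. At an unadjusted p under 0.05 there were 5 and 2 of 40, beside 1212 and 941 of 12972 genes. With limma voom on the recovered reads the calls were also 0, beside 0.817% and 0.524%.

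Psme2 after Poly(I:C) separated by IFNAR. Controls held 199.7, 249, 317 and 247 CPM and the 8 h libraries 310.0, 326, 316 and 238 CPM, so the level was higher at 8 h in WT and RelBko and close to control in the other 2 genotypes. The difference of responses was -0.41 ± 0.08 (adjusted p = 0.004). Without 8 h it was -0.27 (adjusted p = 0.19), and without 3 h -0.54 (adjusted p = 0.00089). After CpG, Psme2 rose at 8 h in all 4 genotypes, and the difference by IFNAR state, -0.26 ± 0.08, gave an adjusted p of 0.059. For Psma5 the CpG difference was -0.39 ± 0.11 (adjusted p = 0.042). Psmd14, the deubiquitinase of the lid, was at 90.3, 98.0, 106 and 109.7 CPM in controls and 127, 93.8, 93.0 and 81.0 CPM 8 h after CpG, and differed by -0.36 ± 0.10 (adjusted p = 0.038). Without 8 h the differences were -0.32 for Psma5 (adjusted p = 0.33) and -0.21 for Psmd14 (adjusted p = 0.57), and without 3 h they were -0.46 and -0.52 (adjusted p = 0.026 and 0.0067). Without the 2 shallowest libraries, which are the IFNAR-null CpG 8 h ones, they were -0.32 and -0.21 (adjusted p = 0.18 and 0.35). With no filter neither was called. For Psma6, the CpG response differed by -0.10 ± 0.09 with IFNAR state and -0.14 ± 0.09 with RelB state, and neither passed the test.

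Transcripts of catalytic subunits that replace one another were set against each other as ratios of CPM. These need no scaling and are compared here between libraries only. Exchange of the proteins was not measured. The ratio of Psmb9 to Psmb6 was 0.985, 1.44, 1.74 and 1.38 in controls, 0.709, 1.36, 1.54 and 1.39 8 h after CpG and 1.07, 1.62, 1.81 and 1.61 8 h after Poly(I:C). WT was lowest in each of these 3 sets. The ratio of Psmb10 to Psmb7 was 2.09, 1.97, 2.08 and 1.59 in controls, 1.76, 2.15, 1.94 and 1.62 at 8 h of CpG and 2.59, 2.15, 1.86 and 1.74 at 8 h of Poly(I:C), where WT was highest. The ratio of Psmb8 to Psmb5 was 12.7, 18, 17.7 and 19.1 in controls, 11.9, 14.8, 17 and 15.5 at 8 h of CpG and 11.8, 12.3, 14.9 and 20.2 at 8 h of Poly(I:C). The levels of Psmb8 ran from 321.8 to 549.9 CPM and those of Psmb9 from 123 to 246 CPM over all libraries. Psmb8 fell 3 h after CpG, with a log2 change of -0.31 ± 0.06 (adjusted p = 0.00071). Psmb9 was higher in IFNARko than in WT by 0.62 ± 0.06 (adjusted p = 6.1e-09) and lower in the double knockout than in IFNARko, with -0.46 ± 0.06 (adjusted p = 8.7e-07).

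Genes that build, regulate or feed the proteasome gave a comparison from the same pathway. The assembly and regulation list also held the catalytic genes Psmb8 and Psmb9, both called lower 3 h after CpG and Psmb8 also at 8 h. Of its 22 genes, 2 were called higher and 6 lower 3 h after CpG, and 5 higher and 5 lower at 8 h. The shares of all genes were 12.4% higher and 31.9% lower at 3 h, and 15.3% and 38.8% at 8 h. At 8 h of Poly(I:C) 5 were higher and 5 lower, beside 18.9% and 24.1%. Of 16 ubiquitin supply and delivery genes, 2 were higher and 6 lower at 3 h of CpG, 3 higher and 6 lower at 8 h, and 1 higher and 4 lower at 8 h of Poly(I:C). Nfe2l1 and Nfe2l2 encode the factors NRF1 and NRF2, which can drive proteasome genes. Nfe2l2 rose 3 h after CpG from 97.7 to 152 CPM in controls to 167 to 297 CPM, a change of 0.87 ± 0.09 (adjusted p = 1.1e-06), and Nfe2l1 by 0.49 ± 0.07 (adjusted p = 2e-05). Ddi2, the protease that activates NRF1, fell by 0.76 on the log2 scale (adjusted p = 8.3e-05).

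Sqstm1, whose product p62 carries ubiquitinated cargo to autophagy, rose by 0.95 ± 0.12 3 h after CpG (adjusted p = 2e-05) and was lower in IFNARko than in WT, with a difference of -0.79 (adjusted p = 1.9e-07). Vcp, the unfoldase that delivers substrates, rose by 0.41 ± 0.07 (adjusted p = 0.00012).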

How the data were processed

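The authors deposited 2 sheets of gene-level signal values, 1 per stimulus with the same 4 control columns. The values are CPM + 1, judged from the values themselves. Less 1, 100% of them were whole reads to within 0.01 read. Per the submitters' processing notes, which give neither roles nor versions, the tools included cutadapt and edgeR and the build was mm10. The sources used here give no aligner, counting tool, strand setting or annotation. Unnamed entries held up to 0.116% of a library and were left out.

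Tests used limma 3.58.1 in R 4.3.3 (lmFit, contrasts.fit, eBayes with trend and robust) on log2 of CPM + 1, a pseudocount of 1. Genes with at least 1 CPM in at least 3 libraries of a fit were tested, 12972 over all 28 libraries. P-values are two-sided, adjusted by Benjamini-Hochberg over all genes tested, and called under 0.05. With 1 library per group, 4 genotypes or 6 conditions served as repeats, so p-values measure only the spread between these samples, which may be technical. In the genotype tests the 6 conditions repeat within a genotype. Variation between mice or cultures is thus not measured and cannot be told apart from genotype. In the tests of response differences, each IFNAR or RelB state held 2 genotypes with 1 control library each, and 6 residual degrees of freedom were left. Fits were run on simulated counts with few changed genes, a fixed spread and no planned shift of the median of all genes. That run does not check the fits under the wide changes seen here or under variation between cultures. Alternatives were TMM and median-ratio scaling, a pseudocount of 0.5, no filter, dropping the 2 shallowest libraries, and leaving out parts of the data. Each genotype was left out in the tests against control and of CpG against Poly(I:C), and each condition in the genotype tests. In the tests of response differences only each time was left out, so these were not tried without a genotype. limma voom on recovered reads was added after the data were seen. Per contrast, up to 10 called members of each sign were named. Of each of the 2 pathway lists, up to 4 genes per contrast, those with the lowest adjusted p, could be named, and 1 gene is not reported here.

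The members, lists and motifs were chosen with earlier results of these data known. Coordinates and exon lengths are from GENCODE M21 (GRCm38), and promoter windows from RefSeq (GRCm38.p6).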

Additional observations from a re-analysis of the deposited data

Results flagged for a closer look

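The response of 3 members differed between IFNAR-intact and IFNAR-null cells by a test of the difference itself. Psma5 changed less after CpG without IFNAR, by -0.39 on the log2 scale. In WT it was 0.34 above control at 3 h and 0.73 at 8 h, in RelBko 0.20 and 0.30, in IFNARko -0.06 and 0.08, and in the double knockout -0.03 and 0.04. Psmd14 differed after CpG by -0.36. Its 8 h change was 0.48 in WT, -0.06 in RelBko, -0.19 in IFNARko and -0.43 in the double knockout, so WT and the double knockout lay farthest apart. Psme2 differed after Poly(I:C) by -0.41, with 8 h changes of 0.63 in WT, 0.39 in RelBko, -0.00 in IFNARko and -0.05 in the double knockout. The IFNAR-null CpG 8 h libraries are the 2 of lowest depth. T cell genes are higher in IFNARko, and mast cell or basophil genes in both IFNAR-null genotypes. Their part in these differences was not tested.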

How the results depend on the processing

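Of the recomputed values, 876 kept direction and side of the threshold, 175 kept direction but lost the call, and 17 reversed. The number of members called at 3 h of CpG, 9 on the library total, was 16 with median-ratio scaling. At 8 h of CpG it was 15, and 8 with TMM, beside 2745 of 12605 genes higher and 3315 lower. At 3 h of Poly(I:C) it was 4, and 2 with no filter, beside 1497 of 22358 genes higher and 946 lower. RelBko against WT gave 3, then 5 with median-ratio scaling and 6 without the 2 shallowest libraries. Without these, 2852 of 12824 genes were higher and 1284 lower. IFNARko against WT gave 26, then 12 with median-ratio and 11 with TMM scaling. With TMM, 2737 of 12839 genes were higher and 3083 lower. CpG against Poly(I:C) gave 12, then 29 with median-ratio scaling, 28 with TMM and 7 with no filter. With TMM, 2521 of 12839 genes were higher and 2614 lower, and with no filter 1304 and 5214 of 23028. The CpG response by IFNAR state gave 2, then 6 with median-ratio scaling, 8 with TMM and 4 with voom. It gave 0 with no filter and 0 without the 2 shallowest libraries, where it rests on 3 h alone. Genes called higher and lower were 216 and 636 of 12910 with TMM, and 598 and 408 of 12972 with voom. With no filter they were 228 and 285 of 23377, and without those libraries 157 and 208 of 12907. By RelB state the CpG response gave 0, then 1 without those libraries, beside 58 genes higher and 45 lower of 12907. The Poly(I:C) response by IFNAR state gave 1, then 2 without them, beside 422 and 449 of 12907. The pseudocount moved no count by over 1.5 times.

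With 1 genotype left out, the number called at 3 h of CpG ranged from 2 (without RelBko) to 7, at 8 h from 8 (without RelBko) to 15, at 3 h of Poly(I:C) from 1 (without RelBko) to 4, at 8 h from 7 (without RelBko) to 14, and for CpG against Poly(I:C) from 5 (without RelBko) to 8. Calls over all genes were also fewer without RelBko. At 3 h of CpG 1141 genes were higher and 2680 lower of 12481, against 1558 and 4016 of 12608 with every library. At 8 h they were 1517 and 3646, against 1925 and 4892. At 3 h of Poly(I:C) they were 798 and 386 of 12586, against 1758 and 1233 of 12692. At 8 h they were 1576 and 1866, against 2397 and 3060. For CpG against Poly(I:C) they were 1083 and 4151 of 12779, against 1343 and 5409 of 12897. At the upper end of these ranges, without the double knockout, 1398 genes were higher and 3578 lower of 12359 at 3 h of CpG. For CpG against Poly(I:C) they were 1183 and 4785 of 12642, and at 8 h of Poly(I:C) 2103 and 3027 of 12450. Without WT, 1619 and 3986 of 12452 were called at 8 h of CpG, and 2037 and 2483 of 12552 at 8 h of Poly(I:C). Without IFNARko, 1355 and 859 of 12467 were called at 3 h of Poly(I:C). With 1 time left out, the CpG response by IFNAR state gave 0 (without 8 h) to 5, and the Poly(I:C) response 0 (without 8 h) to 1. Of 12972 genes tested without 8 h, 76 were higher and 141 lower for CpG, and 59 and 181 for Poly(I:C). Without 3 h these were 857 and 540 for CpG, and 340 and 334 for Poly(I:C). The causes were not tested.

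The reversed values came from rescaling. With median-ratio scaling, Psmb2 at 8 h of CpG was 0.0034. In the double knockout against RelBko, Psmc1 was -0.02 with both scalings, Psmd13 -0.02 and, with TMM, -0.03, Psmd4 -0.03 with both, and Psmc4, Psmc3 and Psmd3 each -0.04 and, with TMM, -0.05. In CpG against Poly(I:C), Psmd6 was 0.0047 with median-ratio and 0.0011 with TMM scaling, and Psma1 0.05 with both. The planned edgeR test was not run, since the deposited values with 1 added did not qualify as counts. No paired analysis was possible because the labels carry no replicate numbers to pair on, each group having 1 library. Libraries were matched by genotype or by condition instead, as the block of the fits. Depth limits Psma8: in the shallowest library 1 CPM is about 3 reads.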
